A study of Mus musculus with 10 samples.

Results

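The PAR-bZIP and DEC genes are transcriptional outputs of the circadian clock. These and other outputs, 9 genes in all, were followed here in brains of mice with a knockout of the transporter gene Abcc5. The members were taken by gene symbol, as Dbp, Tef, Hlf, Nfil3, Bhlhe40, Bhlhe41, Gm129 (the older name of Ciart), Usp2 and Wee1. All 9 were among the 25050 genes of the deposited count table, and all 9 were among the 14526 with enough counts to be tested. The animals were 5 Abcc5 knockout mice (Abcc5-/-), set against 5 wildtype mice (Abcc5+/+), and both groups carried the FVB/NJ background. Each library came from polyadenylated RNA of the whole brain of a mouse killed with CO2. The construction of the knockout allele and the age, sex, lighting schedule and hour of collection of the animals are not given in the sources used here.

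In this pathway the activator pair CLOCK and BMAL1 binds E-box elements and drives its own repressors together with the genes for DBP, TEF and HLF. DBP, TEF and HLF are proline- and acid-rich (PAR) leucine zipper activators that bind D-box elements, and NFIL3 binds the same elements as a repressor. BHLHE40 and BHLHE41, also called DEC1 and DEC2, are repressors that bind E-boxes, and CIART is a further repressor of CLOCK and BMAL1. USP2 is a ubiquitin protease that acts on clock proteins, and WEE1 is a kinase that holds back entry into mitosis. In the brain, loss of the 3 PAR-bZIP activators together is known to cause seizures in mice.

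Levels are given in CPM, the usual rate of a gene's counts relative to its library's total, with libraries scaled by the trimmed mean of M-values, and differences as the log2 fold change of knockout over wildtype. A gene was called where the adjusted p of edgeR's quasi-likelihood test was under 0.05 over all tested genes. Total counts ran from 7731294 to 23588335 per library. The deeper libraries, with at least 19795743 counts, were 2 knockout and 1 wildtype, and the 7 shallower ones, with at most 11479995, were 3 knockout and 4 wildtype. Abcc5 itself averaged 219 ± 5.95 CPM in knockout and 311 ± 12.6 CPM in wildtype brains (SD, n = 5 each), so its transcript was reduced and still detected (log2 fold change -0.51, edgeR adjusted p 6.35e-06). It lies on chromosome 16, where none of the 9 members lies. The samples are labelled whole brain, and summed CPM of 4 neuronal markers was 4212 to 4575 in knockout and 4288 to 4425 in wildtype, whereas 3 liver markers summed to at most 0.455 in knockout and 1.05 in wildtype. Knockout replicate 3 stood apart, with a sum of 144 CPM for 6 cerebellar markers against 842 to 937 in the other knockout and 785 to 824 in the wildtype libraries. The 4 microglial markers summed to 146 to 181 CPM in knockout and 122 to 137 CPM in wildtype, without overlap, whereas the sums for neurons, astrocytes, oligodendrocytes, endothelium, choroid plexus and blood overlapped between the groups. In whole tissue, fewer cells of a type and less RNA per cell cannot be told apart.

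The promoters of 7 members were matched in a RefSeq table of build GRCm38.p6, which gives 250 bases before and 50 after each gene's start. Bhlhe40 and Wee1 had no entry there, so their promoters were not searched. The table was searched on both strands for the E-box (CACGTG), for the D-box in the spellings TTATGTAA and TTACGTAA, and for the cyclic AMP response element (TGACGTCA) and its shorter form TGACG, which the longer one contains. A member was counted if any of its windows held the letters, whereas the shares beside it are of single windows. The E-box was found in 3 of the 7 members, against 7.15% of all 32851 windows. Neither D-box spelling was found in the 7 members, against 0.938% and 0.119% of windows. The full cyclic AMP response element was found in 1 member, Hlf, against 1.79% of windows, and the shorter form in 3, Hlf, Nfil3 and Usp2, against 20.8%. These are matches of letters and not shown to be bound. The sequences below, 5′ to 3′ on the gene's strand, are those of the member with the largest reduction in the knockout, Nfil3 (chr13:52981040-52981289, minus strand, the shorter element on the opposite strand in capitals), and of the members with E-boxes (in capitals). Gm129 held 3 E-boxes (chr3:95882229-95882478, minus strand), Bhlhe41 held 1 (chr6:145865538-145865603, minus strand), and Tef held 1 in each of its 2 listed promoters (chr15:81802516-81802581 and chr15:81811246-81811311, plus strand). The Hlf element is shown with the bases before it (chr11:90390918-90390956, minus strand, element in capitals), and its strand, unlike that of the other 6 members, could not be checked against a transcript.
Nfil3: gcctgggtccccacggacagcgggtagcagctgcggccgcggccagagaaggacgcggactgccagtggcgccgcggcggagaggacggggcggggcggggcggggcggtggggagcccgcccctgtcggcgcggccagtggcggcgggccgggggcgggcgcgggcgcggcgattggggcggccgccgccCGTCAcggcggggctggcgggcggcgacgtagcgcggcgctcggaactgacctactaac
Gm129: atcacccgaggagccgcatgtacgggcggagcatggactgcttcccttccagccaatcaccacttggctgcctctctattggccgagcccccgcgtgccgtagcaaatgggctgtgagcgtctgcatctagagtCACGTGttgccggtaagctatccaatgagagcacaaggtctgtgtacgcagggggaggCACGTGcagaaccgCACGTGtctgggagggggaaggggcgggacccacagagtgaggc
Bhlhe41: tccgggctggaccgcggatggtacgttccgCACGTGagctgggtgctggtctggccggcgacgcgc
Tef, first promoter: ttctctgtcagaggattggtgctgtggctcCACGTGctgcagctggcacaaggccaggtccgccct
Tef, other promoter: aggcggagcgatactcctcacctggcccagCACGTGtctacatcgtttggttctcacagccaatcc
Hlf: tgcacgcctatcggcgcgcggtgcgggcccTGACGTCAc

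The comparison asked which of these outputs differed in the Abcc5 knockout brain. A repressor of each class, Nfil3 of the D-box and Bhlhe40 of the E-box, fell in knockout brains. By the fitted fold change, Nfil3 fell by 30.2% and Bhlhe40 fell by 22.1%. With a single library left out in turn, the call of Nfil3 was kept in 9 fits and that of Bhlhe40 in 3. The hour of collection is not given for either group, and its part in these differences was not tested. The D-box activators Dbp, Tef and Hlf did not pass the test, nor did Bhlhe41, Gm129, Usp2 and Wee1. Thus 2 of the 9 members were called, both lower, where 1.18% of all tested genes were called, 0.964% lower and 0.213% higher. At an unadjusted p under 0.05, 3 members passed, all lower, against 14.8% of all tested genes in either direction and 8.03% lower, and limma-voom and DESeq2 also called 2 lower and none higher. A log2 fold change below 0 was found for 6 of the 9 members and for 48.4% of all tested genes. The median log2 fold change of the 9 members was -0.071, against 0.0042 over all tested genes.

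**Figure D1:**
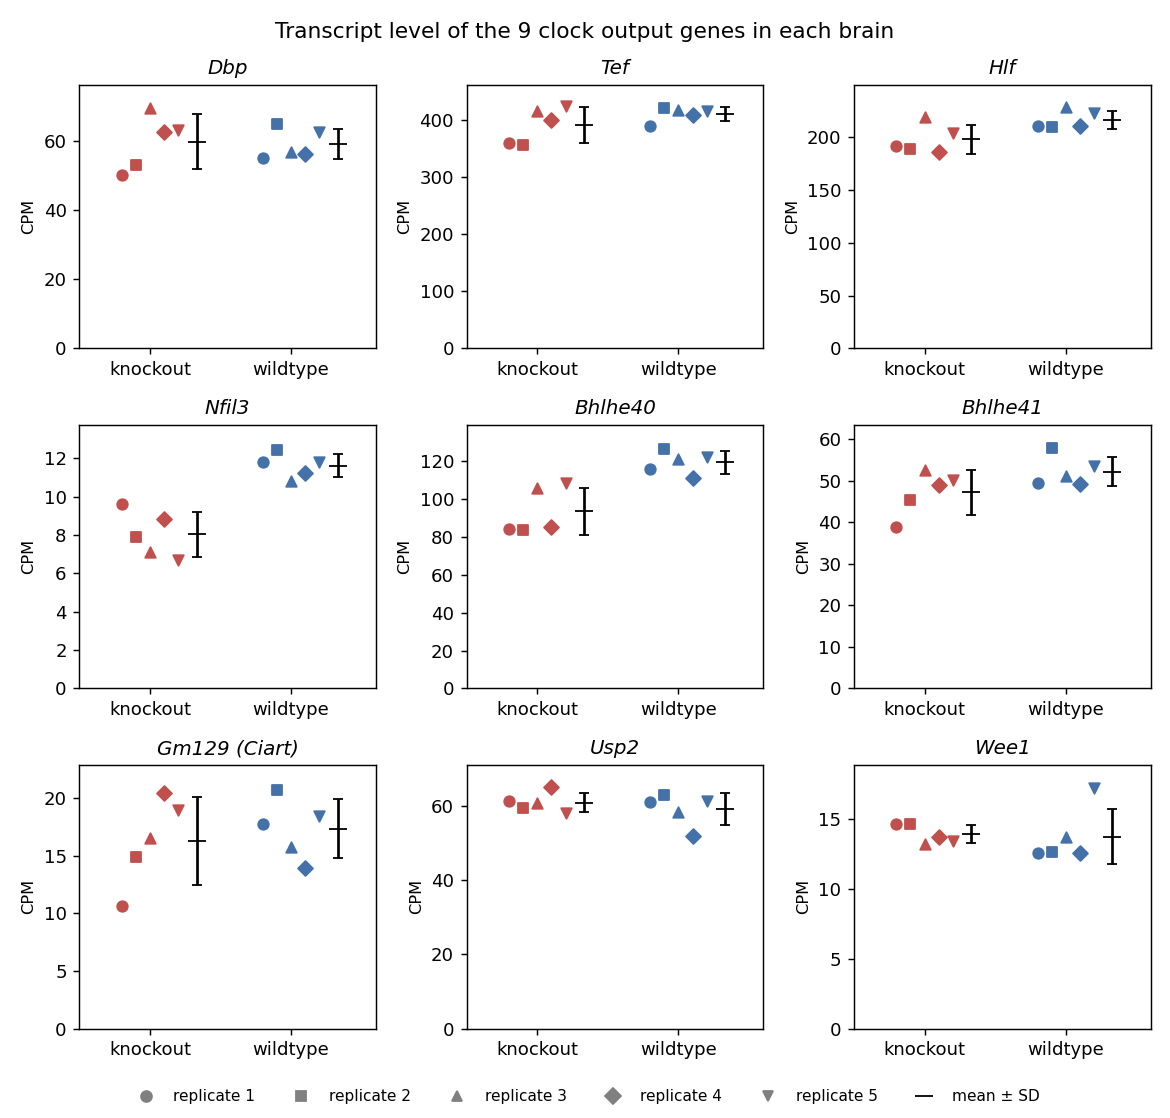
CPM of each of the 9 genes (vertical axis, from 0) in the 5 knockout and 5 wildtype libraries, with replicates as symbols and the mean ± SD in black. Nfil3 and Bhlhe40 separate the groups, at no more than 9.61 and 109 CPM in knockout and no less than 10.8 and 111 CPM in wildtype, whereas the groups overlap for the other 7.

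Nfil3 (ENSMUSG00000056749, chromosome 13, 53062578 to 53076442 in the deposited coordinates, whose build is not named) encodes the repressor that shares the D-box with the PAR-bZIP activators. The GRCm38.p6 promoter printed above, at chr13:52981040-52981289, lies below this span although the gene is on the minus strand. The deposited coordinates are therefore of another build, and gene positions here cannot be set against the promoter positions. The level of Nfil3 in knockout replicates 1 to 5 was 9.61, 7.88, 7.12, 8.81 and 6.71 CPM. In wildtype replicates 1 to 5 it was 11.8, 12.4, 10.8, 11.3 and 11.8 CPM. Every knockout library lay below every wildtype library, as was the case for 2.64% of all tested genes, and no member showed the opposite, which 1.54% did. On the log2 scale the difference was -0.52 (SE 0.095), with an edgeR adjusted p of 0.0138. These levels rest on 54 to 208 counts per knockout library and 84 to 234 per wildtype library. Leaving out knockout replicate 2 ended the call at a difference of -0.50 (edgeR adjusted p 0.0549), and so did keeping just the 7 shallower brains, at -0.56 (edgeR adjusted p 0.144). Without knockout replicate 3, the library low in cerebellar transcripts, it was kept at -0.49 (edgeR adjusted p 0.0115). In the authors' deposited table Nfil3 had a log2 fold change of -0.52 and an adjusted p of 0.0219.

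Bhlhe40 (ENSMUSG00000030103, chromosome 6, 108610623 to 108616919) encodes the DEC repressor with the higher level in these brains. Its level in knockout replicates 1 to 5 was 84.4, 83.8, 106, 85.2 and 109 CPM, and in wildtype replicates 1 to 5 it was 116, 127, 121, 111 and 122 CPM. The groups did not overlap, and the knockout libraries fell into 3 from 83.8 to 85.2 CPM and 2 higher ones, replicates 3 and 5. The difference was -0.36 on the log2 scale (SE 0.075, edgeR adjusted p 0.0303), and the authors' deposited table gave -0.38 with an adjusted p of 0.0154. The call depended on single libraries. It was lost without knockout replicate 1, 2 or 4 (edgeR adjusted p 0.0794, 0.095 and 0.084), and without wildtype replicate 2, 3, 4 or 5 (edgeR adjusted p 0.0837, 0.078, 0.0561 and 0.0881). It was also lost in the 7 shallower libraries alone, with a log2 fold change of -0.27 and an edgeR adjusted p of 0.242. Without knockout replicate 3 it was kept, with a log2 fold change of -0.41 and an edgeR adjusted p of 0.00223. In the deeper libraries, with 2 knockouts and 1 wildtype, the mean log2 CPM differed by -0.46, and in the others by -0.28. The same differences for Nfil3 were -0.49 and -0.57. The knockout libraries with the highest Bhlhe40 had the lowest Nfil3, so the order of the knockouts was not shared by these repressors. The microglial markers, all 4 detected in every library, had a higher sum in each knockout than in each wildtype library. So had the 6 cerebellar markers outside knockout replicate 3, at 842 to 937 CPM in the other knockouts and 785 to 824 CPM in wildtype. The part of these markers in either difference was not tested.

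Bhlhe41 (ENSMUSG00000030256, chromosome 6, 145806763 to 145814078), the other DEC repressor, did not pass. Its level in knockout replicates 1 to 5 was 38.8, 45.3, 52.6, 48.9 and 50.1 CPM, and in wildtype replicates 1 to 5 it was 49.4, 57.7, 51.1, 49.1 and 53.4 CPM. Knockout replicates 1, 2 and 4 lay below all wildtype libraries and replicates 3 and 5 within their range. The log2 fold change was -0.14, with a 95% interval from -0.30 to 0.012 (edgeR adjusted p 0.381), so a reduction as large as that of Nfil3 lies outside the interval and no change lies inside it. Within each library the log2 ratio of Bhlhe41 to Bhlhe40 was -1.12 to -0.80 in knockout and -1.25 to -1.13 in wildtype, without overlap, with means of -0.99 ± 0.14 and -1.20 ± 0.045 (SD, n = 5 each). Bhlhe41 thus took a larger share of the DEC counts in every knockout brain than in any wildtype brain, though the ranges nearly met. The mean ratio was higher by 0.21 on the log2 scale. Both genes had fold changes below 0, at -0.14 for Bhlhe41 and -0.36 for Bhlhe40, so the ratio is not a rise of Bhlhe41. It was not tested.

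None of the 3 PAR-bZIP activators passed the test. Dbp (ENSMUSG00000059824, chromosome 7, 52960458 to 52965525) had 50.3, 53.0, 69.7, 62.6 and 63.4 CPM in knockout replicates 1 to 5, and 55.1, 64.8, 56.8, 56.4 and 62.5 CPM in wildtype replicates 1 to 5. The lowest and the highest of all 10 libraries were both knockouts. The log2 fold change was 0.013, with a 95% interval from -0.16 to 0.18 (edgeR adjusted p 0.968), and it was below 0 without knockout replicate 3, 4 or 5 or wildtype replicate 1, 3 or 4, reaching -0.037 without knockout replicate 3. Dbp overlaps Sphk2 in the deposited coordinates, which had 3046 counts in all against 7486 for Dbp and a log2 fold change of -0.014. The strand used in counting is not given, so reads of the overlap cannot be told apart. The other overlapping pairs were Tef with Gm17597, Bhlhe40 with 0610040F04Rik, Gm129 with C920021L13Rik and Usp2 with Rnf26, whose summed counts were 169, 144, 221 and 940.

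Tef (ENSMUSG00000022389, chromosome 15, 81632851 to 81657291) had 359, 357, 416, 401 and 424 CPM in knockout replicates 1 to 5, and 389.7 to 421 CPM in the wildtype libraries. Knockout replicates 1 and 2 lay below all wildtype libraries, and replicate 5 lay above them. Tef had a log2 fold change of -0.071, with a 95% interval from -0.18 to 0.041 (edgeR adjusted p 0.563). Hlf (ENSMUSG00000003949, chromosome 11, 90197849 to 90252231) had 192, 189, 219, 186 and 205 CPM in knockout replicates 1 to 5, and 210.2 to 229 CPM in the wildtype libraries. All knockouts except replicate 3 lay below the wildtype range. The log2 fold change of Hlf was -0.13, with a 95% interval from -0.24 to -0.022, and it was the member that reached an unadjusted p under 0.05 without being called (edgeR adjusted p 0.248). Without knockout replicate 3 it was -0.17 (edgeR adjusted p 0.0521).

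The proportions among the activators overlapped between the groups. The log2 ratio of Tef to Dbp was 2.72 ± 0.097 in knockout and 2.80 ± 0.079 in wildtype libraries (SD, n = 5 each), and that of Hlf to Dbp was 1.74 ± 0.14 in knockout and 1.88 ± 0.12 in wildtype. The log2 ratio of the repressor Nfil3 to the activator Dbp was -3.29 to -2.39 in knockout and -2.41 to -2.23 in wildtype. Of the knockouts, replicate 1 lay within the wildtype range of this ratio and the other 4 below it.

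Of the remaining outputs, Gm129 (ENSMUSG00000038550, chromosome 3, 95682426 to 95686174) varied most between brains. It had 10.7, 14.9, 16.5, 20.4 and 18.9 CPM in knockout replicates 1 to 5, and 17.8, 20.6, 15.7, 14.0 and 18.4 CPM in wildtype replicates 1 to 5. The log2 fold change was -0.067, with a wide 95% interval from -0.37 to 0.24 (edgeR adjusted p 0.878), and without knockout replicate 1 it was 0.033. Usp2 (ENSMUSG00000032010, chromosome 9, 43875104 to 43903710) ran from 58.2 to 65.2 CPM in knockout and from 52.0 to 62.9 CPM in wildtype, with a log2 fold change of 0.046 and a 95% interval from -0.073 to 0.17. Wee1 (ENSMUSG00000031016, chromosome 7, 117265864 to 117285626) ran from 13.2 to 14.6 CPM in knockout and from 12.5 to 17.2 CPM in wildtype, with a log2 fold change of 0.041 and a 95% interval from -0.15 to 0.23. With 1 library left out, Wee1 ran from 0.0033 without wildtype replicate 1 to 0.12 without wildtype replicate 5, the library at 17.2 CPM. The edgeR adjusted p-values of Usp2 and Wee1 were 0.752 and 0.882. The groups overlapped for all 3 genes.

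**Figure D2:**
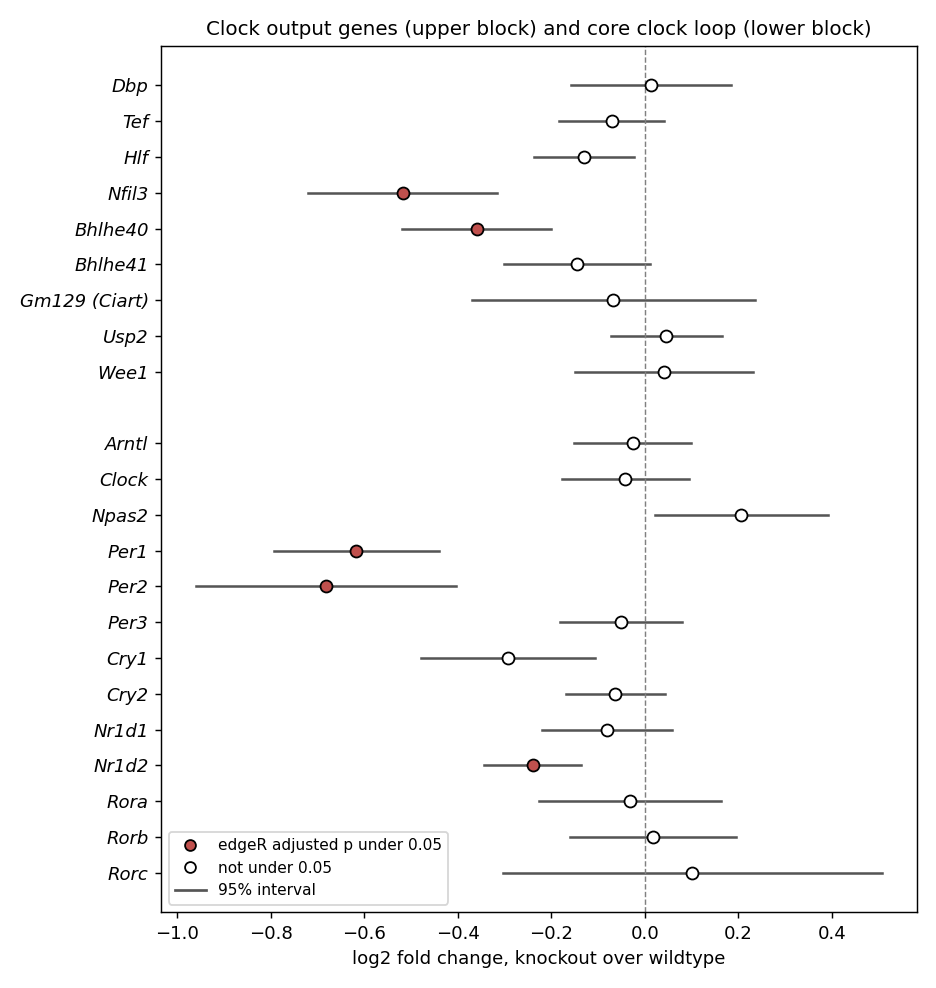
Log2 fold change of knockout over wildtype (horizontal axis) with its 95% interval for the 9 output genes (upper block) and 13 core clock genes (lower block), with genes under an edgeR adjusted p of 0.05 in red. Nfil3 at -0.52 and Bhlhe40 at -0.36 are filled in the upper block, and Per1, Per2 and Nr1d2 in the lower.

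The order of the members by level was compared per kilobase of exon in the GENCODE M21 annotation, since longer transcripts collect more reads. Tef was highest, at 49.8 ± 4.01 CPM per kb in knockout and 52.3 ± 1.62 in wildtype brains (SD, n = 5 each), followed by Hlf at 29.7 ± 2.05 in knockout and 32.4 ± 1.30 in wildtype. Bhlhe40 had 19.9 ± 2.67 CPM per kb in knockout and 25.4 ± 1.27 in wildtype, and Dbp had 19.97 ± 2.66 in knockout and 19.8 ± 1.43 in wildtype. Bhlhe40 thus stood above Dbp in wildtype by more than their SDs, and the pair did not differ beyond their spread in knockout. Usp2 followed at 12.7 ± 0.547 CPM per kb in knockout and 12.3 ± 0.900 in wildtype. Gm129 and Bhlhe41 did not differ beyond their spread in either group, at 7.199 ± 1.68 and 7.01 ± 0.798 CPM per kb in knockout and 7.66 ± 1.13 and 7.76 ± 0.528 in wildtype. Nfil3 had 3.96 ± 0.588 CPM per kb in knockout and 5.73 ± 0.297 in wildtype, and Wee1 had 4.06 ± 0.191 in knockout and 4.01 ± 0.580 in wildtype. Nfil3 was therefore above Wee1 in wildtype and did not differ from it beyond their spread in knockout. Lengths are the union of all annotated exons, so a gene that uses short isoforms in brain is understated.

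**Figure D3:**
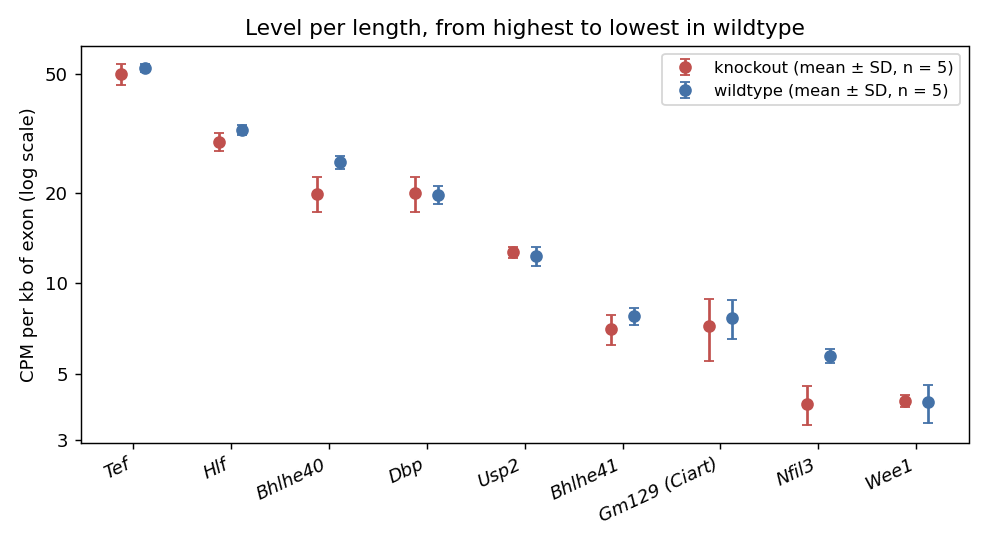
Mean ± SD (n = 5 each) of CPM per kilobase of exon on a log axis, for knockout (left of each pair) and wildtype, ordered by the wildtype level. Tef is highest at 49.8 and 52.3, and Wee1 and Nfil3 are at the low end.

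The members also varied between brains of the same genotype. Knockout replicate 1 was the lowest of the 10 libraries for Dbp, Bhlhe41 and Gm129, and knockout replicate 2 for Tef and Bhlhe40. Each of these brains was among the 2 lowest libraries for 5 of the 9 members. The same was not counted over all tested genes, so it cannot be called a trait of the members. Wildtype replicate 2 was the highest library for 4 members, namely Nfil3, Bhlhe40, Bhlhe41 and Gm129. The SD of log2 CPM was larger among knockout than among wildtype libraries for 7 of the 9 members, the exceptions being Usp2 and Wee1, and for 59.9% of all tested genes. Without knockout replicate 3 the same 7 of 9 were wider in knockout, against 48.2% of all tested genes. The SDs of Hlf were then nearly equal, at 0.059 in knockout and 0.057 in wildtype, and those of Gm129 were 0.42 in knockout and 0.22 in wildtype. Several members were low in the same libraries, so the 9 are not independent observations. For Tef, the SD without that library was 0.12 in knockout and 0.046 in wildtype, and for Nfil3 it was 0.22 in knockout and 0.074 in wildtype.

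**Figure D4:**
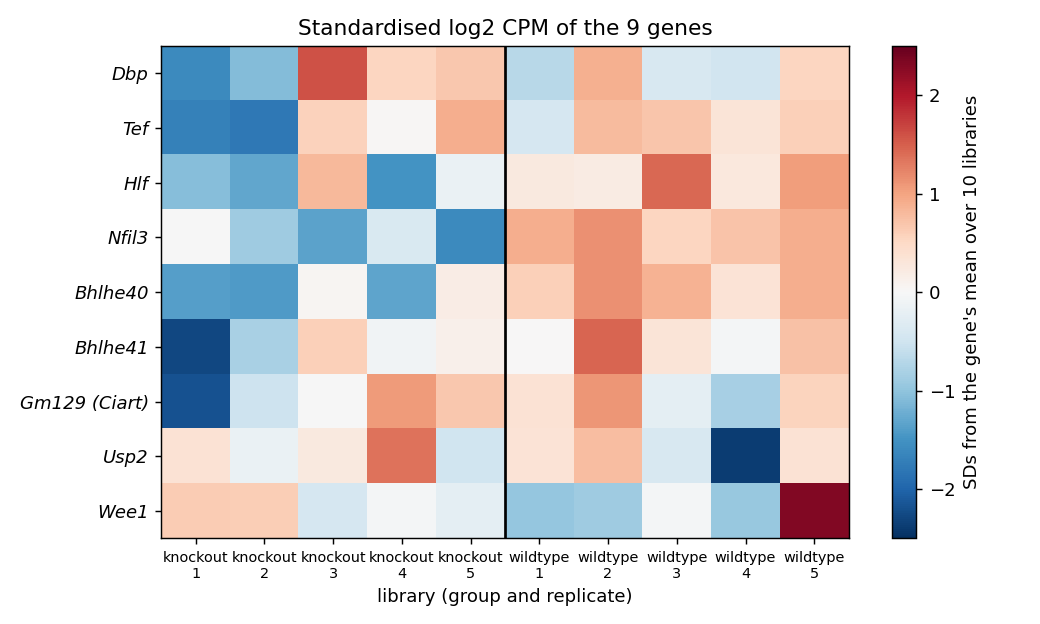
Level of the 9 genes (rows) in the 10 libraries (columns, knockout left of the line), as SDs of log2 CPM from each gene's mean over the 10 libraries. Knockout replicates 1 and 2 are each among the 2 lowest libraries for 5 of the 9 genes, Nfil3 is lowest in knockout replicates 3 and 5, and wildtype replicate 5 is high for Wee1 at 17.2 CPM.

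Likeness of pattern was measured as the root mean square difference of standardised log2 CPM over the 10 libraries, where 0 is an identical pattern. Among the members the closest pair was Hlf and Bhlhe40, at 0.465, followed by Tef and Bhlhe41 at 0.533. Dbp was closest to Bhlhe41 and Tef, at 0.615 and 0.620. The members farthest from any other were Wee1, whose nearest was Usp2 at 1.17, Usp2, whose nearest was Gm129 at 1.03, and Nfil3, whose nearest was Bhlhe40 at 0.918. The least alike pair was Hlf and Usp2, at 1.52. Among the 14498 other genes with a mean of at least 1 CPM, the nearest were Fam196b and 2810422O20Rik to Dbp (0.352 and 0.395), 4833420G17Rik and Xpot to Tef (0.365 and 0.396), and Kdm5b and Lpin2 to Hlf (0.189 and 0.259). Rell1 and Trp53inp2 were nearest to Nfil3 (0.312 and 0.325), Pde4d and Ccnd2 to Bhlhe40 (0.226 and 0.254), and Bmx and Plagl1 to Bhlhe41 (0.294 and 0.356). For Gm129 they were Ints5 and Smoc1 (0.378 and 0.395), for Usp2 Fam192a and Slc46a3 (0.426 and 0.468), and for Wee1 Ftsj1 and Mettl10 (0.438 and 0.514). None of these 18 neighbours was itself called by edgeR. All of these values come from the same 10 libraries and the difference between the groups is part of each pattern. The nearest of 14498 genes over 10 libraries can be close through selection alone, and the value for unrelated genes was not measured.

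The core loop that drives these outputs was read from a list of 13 genes, all tested. By edgeR, 3 of the 13 fell, Per1, Per2 and Nr1d2, none rose, and the list median was -0.051, where 0.964% of all tested genes were called lower and 0.213% higher. The light- and activity-induced repressor gene Per1 had 72.6, 76.3, 90.0, 99.5 and 97.7 CPM in knockout replicates 1 to 5, and 120.3 to 144 CPM in the wildtype libraries, a difference of -0.62 on the log2 scale (edgeR adjusted p 0.00128), and its call held in each fit that left out a library. Its partner Per2 averaged 46.5 ± 12.4 CPM in knockout and 73.9 ± 3.12 CPM in wildtype brains (SD, n = 5 each), which is -0.68 on the log2 scale (edgeR adjusted p 0.0179). Knockout replicates 1 and 2, which were low for Dbp, Tef and Bhlhe40, were also the lowest for Per1, and their Per2 levels of 32.3 and 35.3 CPM were the lowest of all. Nr1d2, a nuclear receptor that represses Arntl, averaged 188 ± 7.48 CPM in knockout and 222 ± 13.1 CPM in wildtype (SD, n = 5 each), or -0.24 on the log2 scale (edgeR adjusted p 0.0264). The call of Per2 was lost without knockout replicate 2 or wildtype replicate 4 or 5 (edgeR adjusted p 0.0501, 0.0561 and 0.0575). That of Nr1d2 was lost without knockout replicate 1, 2 or 4 or wildtype replicate 2, 3, 4 or 5 (edgeR adjusted p 0.0528 to 0.0899), and with the replicate number as a block (edgeR adjusted p 0.0517). With just the 7 shallower brains Per2 and Nr1d2 did not pass (edgeR adjusted p 0.183 and 0.052). At an unadjusted p under 0.05, 4 of the 13 were lower and 1, Npas2, was higher, against 8.03% of all tested genes lower and 14.8% in either direction. The activator genes Arntl and Clock had log2 fold changes of -0.026 and -0.042.

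Genes downstream of or beside the members did not pass. Of the described targets of the PAR-bZIP activators, 3 of 4 had enough counts, and the pyridoxal kinase gene Pdxk, Por and Alas1 had log2 fold changes of 0.040, 0.031 and 0.080, with 208 ± 6.38 CPM in knockout and 202 ± 8.38 CPM in wildtype for Pdxk (SD, n = 5 each). None of the 6 genes for clock protein turnover passed, and the list median was -0.027. Tsc22d3 and Tspan4, which cycle in many mouse organs, had log2 fold changes of 0.034 and 0.063. None of the 4 C/EBP factors, bZIP relatives of the members, passed, with Cebpb nearest at -0.37 (edgeR adjusted p 0.565). Of the cell cycle partners of Wee1, 4 of 7 were tested, and Cdc25b, a phosphatase that opposes WEE1, was nearest at 0.20 (edgeR adjusted p 0.272). At an unadjusted p under 0.05 these 5 lists held no lower gene and 1 higher gene, Cdc25b. Of all tested genes, 8.03% were lower at that threshold and 14.8% passed it in either direction. None of the lists' genes was called by limma-voom or DESeq2. As edgeR called 1.18% of all tested genes, an absence of calls is usual for lists this short.

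The last list held 6 early genes of neuronal activity, described as responsive to the factor CREB, to which Per1 is also known to respond. The activity of CREB was not measured here, and its part in the differences was not tested. All 6 fell by edgeR, with a list median of -1.03, where 0.964% of all tested genes were called lower. This list, like the others, was chosen with earlier results of these data known, so the contrast is not an independent test. Arc, Fos, Fosb, Nr4a1 and Sik1 had log2 fold changes from -1.17 to -0.82, and Egr1 had -0.60. Arc had 82.8, 85.8, 93.5, 80.9 and 117 CPM in knockout replicates 1 to 5 and 187 to 236 CPM in the wildtype libraries (edgeR adjusted p 5.17e-06). Within the knockouts, replicates 5 and 3 had the highest Arc and also the highest Bhlhe40, whereas Nfil3 was lowest in these 2 brains. Replicate 3 is the library low in cerebellar transcripts, at a marker sum of 144 CPM. The shared order thus rests on 2 libraries of unlike make-up, and a link between these genes was not tested. Egr1 lost its call without knockout replicate 1, 2 or 4 or wildtype replicate 1, 2, 3 or 5 (edgeR adjusted p 0.0548 to 0.0965), and Fos, Fosb and Egr1 did not pass in the 7 shallower libraries alone (edgeR adjusted p 0.0543, 0.144 and 0.295).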

How the data were processed

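The deposited table holds raw counts per Ensembl gene for 10 libraries, made by the authors from polyadenylated RNA. The submitters' processing notes name TopHat2 2.0.6, HTSeq, edgeR and limma, and the roles, settings, strand and build are not given in the sources used here. The authors' log2 fold changes and adjusted p-values, also deposited, were read where intact, since 629 fold change cells and 8 p-value cells are damaged and do not read as numbers. A further 10 columns, damaged likewise, were not used. The tests ran under edgeR 4.0.16 (R 4.3.3). Its filterByExpr (minimum count 10, minimum total 15) kept 14526 genes, libraries were scaled by TMM, and genotype was the only term. SEs and 95% intervals were derived from the F statistic, and a prior count of 2 entered log2 CPM. Alternatives used limma 3.58.1 and DESeq2 1.42.0. The method was tested on simulated data. The members, the lists and the rule for named genes (each called list gene, the smallest p per list, 2 nearest patterns per member) were chosen with earlier results of these data known, and the smallest p of 1 list is not reported here. Replicates within a group differed by a chi-square per degree of freedom of 1.29 to 12.1, above counting error. Exon lengths came from GENCODE M21, matched by gene ID. A comparison of the members' proteins was not made here.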

Additional observations from a re-analysis of the deposited data

Results flagged for a closer look

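Values were examined for libraries far from the other 4 of their group, in 74 groups of 5, where chance gives about 1 in 20. Among the members, 1 value stood apart, Wee1 in wildtype replicate 5 at 17.2 CPM, against 12.5 to 13.7 CPM in the other wildtype libraries. Alas1 stood apart in knockout replicate 5 at 59.6 CPM, against 55.0 to 55.9 CPM, and in wildtype replicate 1 at 58.2 CPM, against 51.0 to 53.0 CPM. Sik1 stood apart in knockout replicate 5 at 17.2 CPM, against 11.9 to 13.3 CPM in the other knockout libraries. The summed markers of microglia (181 CPM, against 146 to 150.2 CPM) and of the cerebellum (144 CPM, against 842 to 937 CPM) stood apart in knockout replicate 3.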

How the results depend on the processing

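For the 9 members, 19 alternatives each were run. Nfil3 was called in 17 and Bhlhe40 in 11, both lower in all 19, and no other member was called in any. In the 7 shallower libraries alone the log2 fold changes were -0.56 for Nfil3, -0.27 for Bhlhe40 and -0.016 for Wee1, and 0 members were called by edgeR, with 2 lower at an unadjusted p under 0.05. With 1 library left out, Nfil3 ran from -0.57 to -0.48, Bhlhe40 from -0.42 to -0.32, Dbp from -0.037 to 0.065 and Gm129 from -0.19 to 0.033, and 0 to 2 members were called. An adjusted p under 0.01 left 0 members. Over all genes 171 were called, and 76 (without wildtype replicate 4) to 341 (without knockout replicate 3) with 1 library left out, 31 in the shallower libraries, 261 by DESeq2, and 63 and 373 at adjusted p thresholds of 0.01 and 0.1. With the replicate number as a block 90 genes and 2 members were called, with log2 fold changes of -0.52 for Nfil3 and -0.36 for Bhlhe40. The deviations of same-numbered libraries correlated at -0.14 to 0.089 across genes, so the numbers were not taken as pairs, and the block changed no member's call. Fewer libraries leave less power, and the cause of the other differences was not tested. Counts of 54 to 234 per library limit the precision of Nfil3.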
